A study of Mus musculus with 15 samples.

Results

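Transcripts of STAT5 and of genes that STAT5 is known to drive were measured in mouse bone marrow by bulk RNA sequencing of total RNA. The 9 genes were Stat5a, Stat5b, Socs1, Socs2, Socs3, Cish, Pim1, Pim2 and Id1. They were taken from the table by gene symbol, 9 of 38315 genes, and none was chosen by a threshold on its values. They were compared among 3 groups and, within the leukaemias, with Flt3. Leukaemic marrow came from 7 transgenic mice with acute myeloid leukaemia (AML) and the genotype NUP98-NSD1/FLT3-ITD. NUP98-NSD1 is a fusion of a nucleoporin with a histone methyltransferase, while FLT3-ITD stands for an internal tandem duplication that leaves the receptor tyrosine kinase FLT3 active without its ligand. Wild-type mice gave the 2 references, 4 samples of whole marrow and 4 of lineage-negative marrow, the latter depleted of cells that carry surface antigens of mature blood lineages. Neither reference group was leukaemic, and no group carried a single one of the 2 alleles, so the part of each allele cannot be told apart. The promoters that drive the alleles, the strain, the age and the sex of the mice are not given in the sources used here. The labels number the replicates without a batch, and p-values measure the spread between these samples.

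STAT5A and STAT5B are closely related transcription factors that Janus kinases, or FLT3 with an internal tandem duplication, phosphorylate on a tyrosine. The phosphorylated proteins pair, enter the nucleus and bind the palindrome TTCNNNGAA, the gamma-activated sequence. Among the genes they switch on are the feedback inhibitors of the SOCS family, to which CISH belongs, and the PIM serine/threonine kinases, which favour survival and growth. ID1 is a helix-loop-helix protein that binds partner transcription factors and keeps them off DNA. Activation of STAT5 itself is a matter of phosphorylation, which RNA sequencing does not measure.

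The RefSeq (GRCm38.p6) promoter windows used here, from 250 bases before to 50 bases after the start site, covered 7 of the 9 genes in 10 windows. Socs2 and Id1 had no window in this set and were not searched. The palindrome TTCNNNGAA, which is its own reverse complement so that both strands are searched at once, occurred in the windows of 2 of these 7 genes, Cish and Socs3. Cish had 2 matches. The stretches around the matches are shown because they are the letters STAT5 is known to read, with the matches in capitals.
Cish: gttTTCCTGGAAagTTCTTGGAAa
Socs3: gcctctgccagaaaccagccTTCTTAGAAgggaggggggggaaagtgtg
The Cish stretch lies at chr9:107296656-107296679 on the plus strand, and its matches begin at bases 1 and 12 counted from the start site. The Socs3 stretch lies at chr11:117969492-117969540 on the minus strand, and its match begins 154 bases before the start site. These positions are on GRCm38.p6 and cannot be set beside the gene positions given below, whose build is not settled. Of all 27025 genes with windows of this length, 9.55% held at least 1 match in a window and 0.540% at least 2. By window, 2 of the 10 held a match, and of all 32851 windows 8.30% held at least 1 match and 0.457% at least 2. A match is a string of letters and not a measured binding site.

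Values are normalized counts, read counts per gene that the authors divided by 1 size factor per library. Estimated depth, in M reads (M, mega), was 20.3 to 35.1 for AML libraries, 20.3 to 28.1 for lineage-negative ones and lower, 11.4 to 17.2, for whole marrow. The value of 3 reads, taken as a floor, was 1.96 to 4.09 normalized counts, and each of the 9 genes lay above it in every library. Over the 18941 genes tested the median log2 difference from whole marrow was 0.67 in AML and 0.59 in lineage-negative marrow, but AML and lineage-negative marrow differed by a median of 0.02. Over all 38181 genes with a non-zero value, low ones included, the medians from whole marrow were −0.21 and −0.43, so the shift depends on the genes kept. For the 9 genes, differences of AML from whole marrow are therefore given also relative to the median of the genes tested and with TMM scaling (trimmed mean of M values), which brought the medians to −0.01, −0.09 and 0.03. AML replicates 5 and 6 stood apart with 29.1% and 23.6% of the table's genes listed at 0, where AML reached 41.4% and whole marrow had 7.12% to 15.7%. Erythroid markers (6 genes, haemoglobins included) summed to 293 to 20076 in AML, 4988 to 30928 in lineage-negative marrow and 556675 to 1358160 in whole marrow. Monocyte markers (4 genes) summed to 53753 to 87413 in AML, 11569 to 25339 in whole marrow and 10221 to 16883 in lineage-negative marrow. Neutrophil markers (6 genes) summed to 305622 to 1106750 in AML, 336259 to 920592 in whole marrow and 627 to 13433 in lineage-negative marrow. Progenitor markers (5 genes) summed to 25136 to 32136 in lineage-negative marrow, above AML at 5012 to 10180 and whole marrow at 3036 to 5308. Summed progenitor markers were thus highest in lineage-negative marrow and summed erythroid markers in whole marrow, and none of these sums identifies leukaemic marrow. In bulk marrow, fewer cells of a type and less RNA per cell cannot be told apart, and the part of cell makeup in the results below was not tested.

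Calls required a log2 difference of at least 1 in size together with a limma p below 0.05 after Benjamini-Hochberg adjustment over all genes tested. All 9 genes passed the filter on low values. Against whole marrow, 6 of the 9 were higher in AML: Socs2, Stat5a, Cish, Id1, Socs1 and Stat5b. By limma 0 were lower, and at an unadjusted p under 0.05 there were 8 higher and 0 lower. Across all genes 27.3% were called higher and 11.3% lower in that comparison. After TMM scaling 1 of the 9, Socs2, was called higher, as were 4.73% of all genes, and 20.8% of all genes were called in either direction. At an unadjusted p under 0.05 there were then 4 higher and 0 lower. Stat5a, Cish and Stat5b fell short of the size required, at limma adjusted p of 5.5e-05, 0.010 and 0.0076. Against lineage-negative marrow, 5 of the 9 were higher in AML: Socs2, Socs3, Id1, Cish and Socs1. By limma 0 were lower, and at an unadjusted p under 0.05 there were 7 higher and 1 lower, Stat5a. The background there was 17.7% higher and 12.5% lower, and with TMM scaling, under which the same 5 genes were called higher, it was 17.6% higher. Both comparisons use the same AML libraries. Without AML replicates 5 and 6 the counts were 7 and 5. The 9 genes had a median log2 difference of 1.23 against whole marrow (0.67 over all genes) and of 1.51 against lineage-negative marrow (0.02 over all genes).

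**Figure D1:**
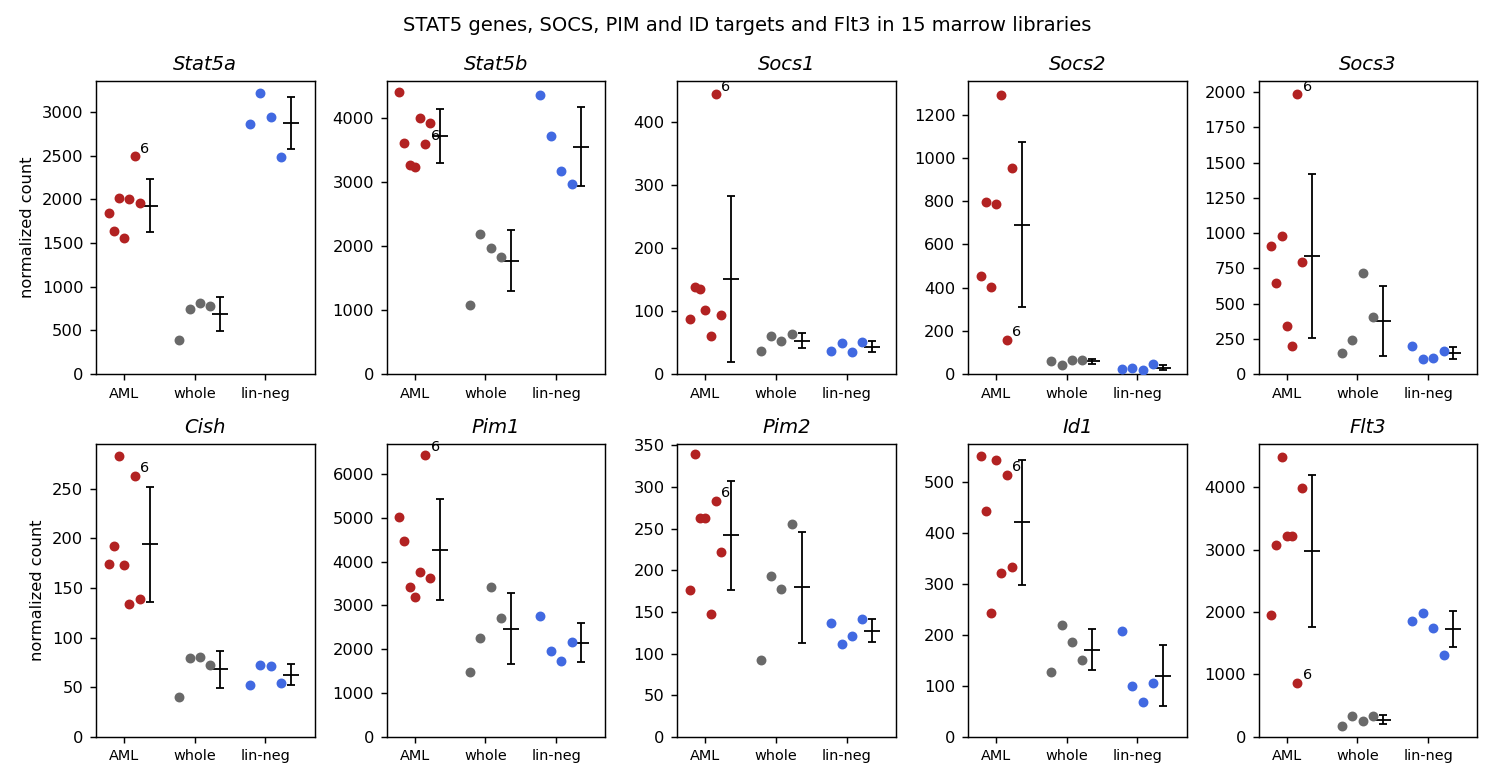
Normalized counts (linear axes from 0) of the 9 genes and of Flt3 in each library of AML (red), whole marrow (grey) and lineage-negative marrow (blue), with the group mean and SD in black and AML replicate 6 numbered. Every AML library lay above every normal library for Socs2, Cish and Id1, and AML replicate 6 was highest for Socs1, Socs3 and Pim1 and lowest for Socs2 and Flt3.

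**Figure D2:**
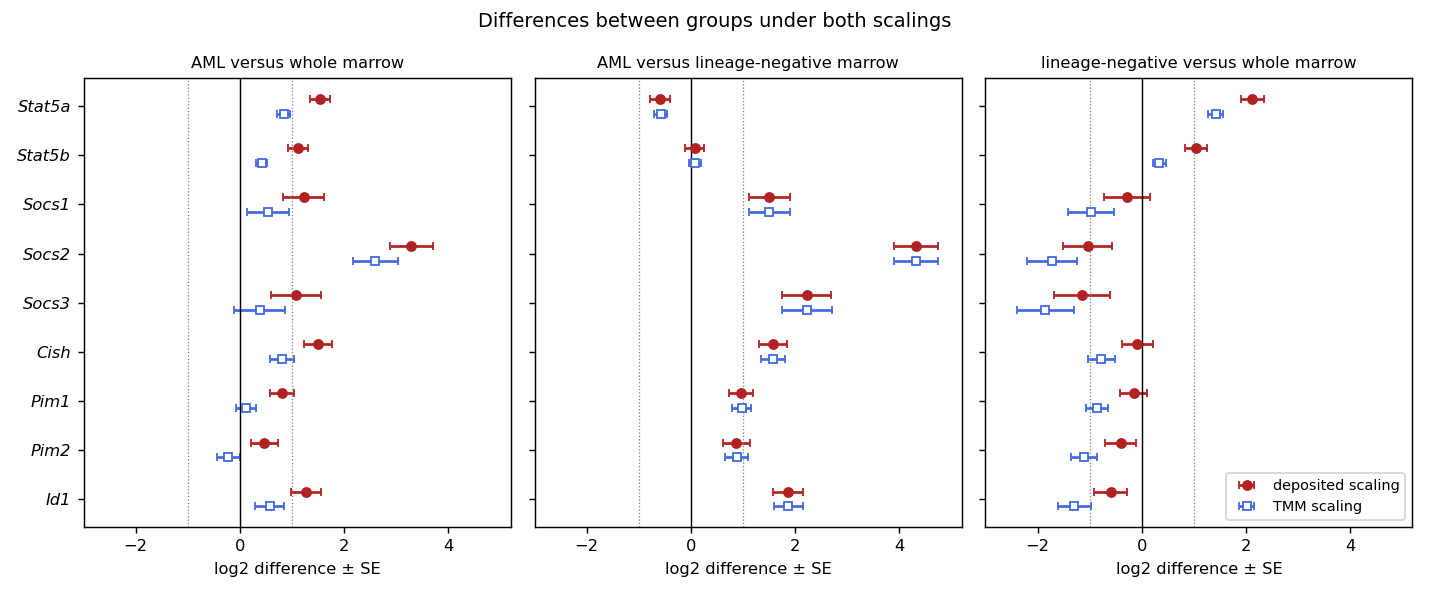
Log2 difference with its standard error (SE) of the 9 genes in the 3 comparisons, under the deposited scaling (red circles) and TMM scaling (blue squares), with dotted lines at −1 and 1. The 2 scalings coincide against lineage-negative marrow, whereas TMM lowers every value against whole marrow, Socs2 from 3.29 to 2.60 and Pim2 from 0.47 to −0.22.

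The STAT5 genes themselves lay side by side on chromosome 11. In the table's coordinates Stat5a (ENSMUSG00000004043) ran from 100750177 to 100775995 on the plus strand and Stat5b (ENSMUSG00000020919) from 100671557 to 100741550 on the minus strand. Stat5a was lowest in whole marrow, with 394, 741.6, 818 and 780 normalized counts, and highest in lineage-negative marrow, with 2859, 3212, 2946 and 2487. AML lay between them at 1556 to 2492, median 1957. The AML and whole marrow values did not overlap, and 6 of 7 AML libraries lay below every lineage-negative library. Stat5a was called higher in AML than in whole marrow, by 1.54 on the log2 scale (SE 0.19, limma adjusted p = 4.5e-06), which was 0.86 relative to the median of all genes and was not called after TMM scaling (0.84). Against lineage-negative marrow the log2 difference was −0.59 (SE 0.19, limma adjusted p = 0.019), short of the size required.

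Stat5b had 3245 to 4414 normalized counts in AML, median 3616. Whole marrow had 1088, 2182, 1974 and 1836, and lineage-negative marrow had 4355, 3721, 3172 and 2975. AML thus lay above whole marrow in all 7 libraries and within the range of lineage-negative marrow in 6 of 7. The log2 difference from whole marrow was 1.11 (SE 0.19, limma adjusted p = 7.0e-05), or 0.44 relative to all genes. The call was lost without whole marrow replicate 1 (log2 difference 0.89) and after TMM scaling (0.42). The difference from lineage-negative marrow was 0.07 (SE 0.19, limma adjusted p = 0.77). Among AML libraries Stat5b was the steadiest of the 9 genes, with an SD of 0.16 on the log2 scale, smaller than in all but 12.3% of 11270 genes with a mean of at least 100.

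The ratio of Stat5a to Stat5b within a library, per exonic length, does not depend on scaling between libraries. It was 0.638 ± 0.0904 (SD, n = 4) in lineage-negative marrow, 0.406 ± 0.0753 (SD, n = 7) in AML and 0.299 ± 0.0317 (SD, n = 4) in whole marrow. Stat5b was thus the more abundant transcript in every library, and the share of Stat5a was largest in lineage-negative marrow. The mean log2 ratio was 0.43 higher in AML than in whole marrow, with 6 of 7 AML libraries above all whole marrows (exact two-sided permutation p = 0.0152, adjusted over 6 ratio tests 0.0455). It was lower by 0.66 on the log2 scale in AML than in lineage-negative marrow, with 6 of 7 libraries below all of them (exact permutation p = 0.00606, adjusted 0.0364). Lineage-negative exceeded whole marrow by 1.09 in 4 of 4 libraries (exact permutation p = 0.0286, the smallest that 4 against 4 allows, adjusted 0.0571). Without whole marrow replicate 1 or 2 the first difference was 0.40 or 0.37, each with an exact permutation p of 0.05. The genes share 608 windows of 50 bases, 8.21% of those of Stat5a and 10.98% of those of Stat5b, so some reads could be assigned to either. Stat5a also overlaps Stat3 on the opposite strand by 72 exonic bases.

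**Figure D3:**
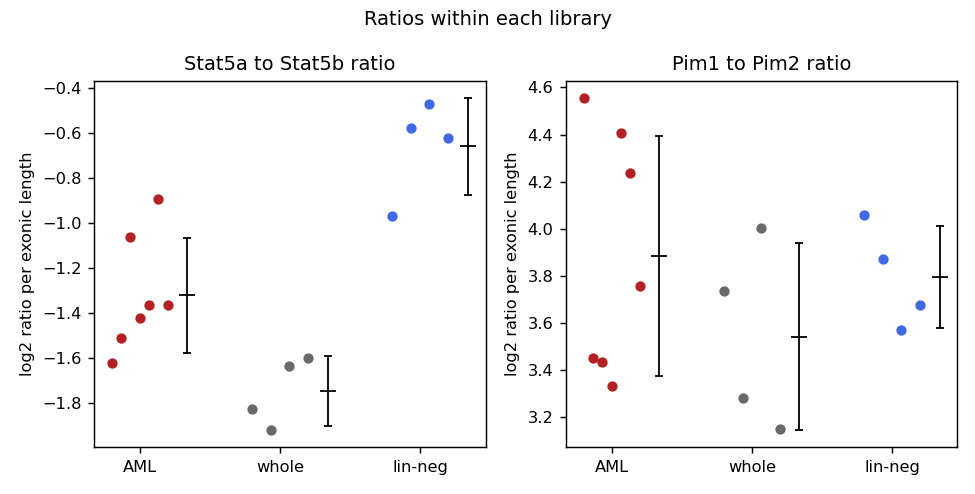
Log2 ratio per exonic length of Stat5a to Stat5b and of Pim1 to Pim2 in each library, with the group mean and SD. For Stat5a to Stat5b, 4 of 4 lineage-negative libraries lie above all whole marrow libraries, 6 of 7 AML libraries lie above all whole marrow libraries and 6 of 7 below all lineage-negative ones. The Pim1 to Pim2 ratios of the 3 groups overlap.

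Socs2 showed the widest separation among the 9 genes. SOCS2 is a feedback inhibitor of the growth hormone receptor and other STAT5-activating receptors. The gene (ENSMUSG00000020027, chromosome 10, 95221224 to 95253042, minus strand in the table) had 59.9, 44.2, 65.7 and 66.8 normalized counts in whole marrow and 24.5, 28.2, 18.5 and 47.5 in lineage-negative marrow. In AML it ranged from 159 in replicate 6 through a median of 787 to 1291 in replicate 5. Every AML library lay above every normal library, and the AML mean of 691 ± 382 (SD, n = 7) was 11.7 times that of whole marrow and 23.3 times that of lineage-negative marrow. The log2 differences were 3.29 (SE 0.42, limma adjusted p = 4.5e-06) and 4.33 (SE 0.42, limma adjusted p = 6.8e-08). Relative to the median of all genes the first was 2.62, and it was called after TMM scaling at 2.60. Both calls of Socs2 held in all 25 alternative settings run.

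Cish, whose product docks on activated cytokine receptors and limits STAT5 signalling, was also higher in all 7 AML libraries than in any normal one. In the table it lay on chromosome 9, 107173225 to 107179983, plus strand (ENSMUSG00000032578). Whole marrow had 40.3, 79.1, 80.4 and 72.3 normalized counts, lineage-negative marrow had 52.6, 72.3, 71.4 and 54.2, and AML had 134 to 283, median 174. The 2 normal groups overlapped, with means of 68.0 ± 18.8 (SD, n = 4) and 62.6 ± 10.7 (SD, n = 4). AML exceeded them by 1.498 (SE 0.27, limma adjusted p = 1.0e-04) and 1.58 (SE 0.27, limma adjusted p = 6.6e-05) on the log2 scale. The first was 0.83 relative to all genes and was not called after TMM scaling, at 0.81. The Cish gene, which carries the pair of palindromes shown above, overlaps the pseudogene Gm17040 on the opposite strand by 1167 exonic bases. Gm17040 had means of 1.35 in whole marrow, 0.617 in lineage-negative marrow and about 0 in AML. A second gene on the opposite strand, Gm17041, overlaps by 1459 exonic bases and is not analysed here.

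Socs1, an inhibitor that binds Janus kinases and blunts interferon responses, was low in normal marrow. The gene (ENSMUSG00000038037) lay on chromosome 16, 10600104 to 10603400, minus strand. Whole marrow had 35.9, 60.3, 53.2 and 62.8 normalized counts, and lineage-negative marrow had 36.3, 49.4, 35.3 and 51.6. In AML the values were 60.4 to 138 in 6 libraries and 443 in replicate 6, with a median of 102 over all 7. AML lay above every lineage-negative library in 7 of 7 and above every whole marrow library in 6 of 7. The log2 difference was 1.23 from whole marrow (SE 0.39, limma adjusted p = 0.010), or 0.55 relative to all genes. Against the lineage-negative group it was 1.51 (SE 0.39, limma adjusted p = 0.0034). Without AML replicate 6 the first was 0.92 and no longer called. TMM scaling also ended that call (0.54).

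Socs3, which shuts down signalling by gp130 receptors and the G-CSF receptor in granulocytes, was the most variable of the 9 genes among the leukaemias. In the table it lay on chromosome 11, 117856905 to 117860873, minus strand (ENSMUSG00000053113). AML ranged from 199 in replicate 5 to 1985 in replicate 6, median 798. Whole marrow was spread as well, at 147, 244, 719 and 402 normalized counts, and lineage-negative marrow had 202, 110, 115 and 163. The SD of log2 values in AML was 1.08, larger than that of 96.9% of the genes with a mean of at least 100. AML exceeded all lineage-negative libraries in 6 of 7, by 2.22 on the log2 scale (SE 0.48, limma adjusted p = 7.3e-04). AML and whole marrow overlapped, and the log2 difference of 1.07 was not called (SE 0.48, limma adjusted p = 0.056). It was called without AML replicate 4 (1.23), AML replicate 5 (1.36) or whole marrow replicate 3 (1.46), while with all libraries it was 0.40 relative to all genes and 0.38 with TMM scaling.

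PIM1 and PIM2 are kinases that phosphorylate regulators of apoptosis and translation. Neither gene was called in any of the 3 comparisons with all libraries and the deposited scaling. Pim1 (ENSMUSG00000024014, chromosome 17, 29709727 to 29715086, plus strand) had 3183 to 6440 normalized counts in AML, median 3761. Whole marrow had 1481, 2254, 3421 and 2721, and lineage-negative marrow had 2748, 1968, 1725 and 2165. AML lay above all lineage-negative libraries in 7 of 7 and above all whole marrow libraries in 5 of 7. The log2 difference was 0.97 from lineage-negative marrow (SE 0.23, limma adjusted p = 0.0017), just short of 1, and it passed 1 without AML replicate 3 (1.02), 4 (1.03) or 7 (1.00) or without lineage-negative replicate 1 (1.09). From whole marrow it was 0.81 (SE 0.23, limma adjusted p = 0.0046), or 0.14 relative to all genes and 0.12 with TMM scaling. Pim1 overlaps the antisense gene Gm26885 by 912 exonic bases, which had means of 152 in AML, 65.0 in whole marrow and 109 in lineage-negative marrow.

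Pim2 (ENSMUSG00000031155, chromosome X, 7744501 to 7749671, plus strand) had 147 to 340 normalized counts in AML, median 262. Whole marrow had 92.4, 193, 177 and 255, so that AML and whole marrow overlapped. Lineage-negative marrow had 137, 112, 121 and 141, below all 7 AML libraries. The log2 difference was 0.88 from lineage-negative marrow (SE 0.27, limma adjusted p = 0.011), again short of 1. From whole marrow it was 0.47 (SE 0.27, limma adjusted p = 0.13) and turned to −0.20 relative to all genes and to −0.22 with TMM scaling, so that no direction is given. The Pim1 to Pim2 ratio per exonic length was 15.6 ± 5.55 (SD, n = 7) in AML, against 14.0 ± 2.12 (SD, n = 4) in lineage-negative and 11.98 ± 3.32 (SD, n = 4) in whole marrow. The exact permutation p for these differences was 0.267 between AML and whole marrow, 0.742 between AML and lineage-negative marrow and 0.343 between the normal groups (adjusted over 6 ratio tests 0.40, 0.742 and 0.411).

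Id1 rose in AML against both references. In the table it lay on chromosome 2, 152578171 to 152579330, plus strand (ENSMUSG00000042745). AML had 243 to 550 normalized counts, median 442, against 127, 218, 186 and 150 in whole marrow and 207, 98.7, 67.9 and 106 in lineage-negative marrow. The lowest AML library, replicate 3, still lay above the highest normal library. The log2 difference was 1.27 from whole marrow (SE 0.29, limma adjusted p = 8.4e-04) and 1.87 from lineage-negative marrow (SE 0.29, limma adjusted p = 2.4e-05). The first was 0.60 relative to all genes and was not called with TMM scaling (0.58).

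Between the 2 normal groups, Stat5a and Stat5b were called higher in lineage-negative than in whole marrow and 0 of the 9 genes were called lower by limma (2 at an unadjusted p under 0.05, Socs2 and Socs3). The background was 33.1% higher and 17.2% lower. Stat5a differed by 2.12 (SE 0.22, limma adjusted p = 2.7e-07), and by 1.42 after TMM scaling, under which it was called as well. Stat5b differed by 1.04 (SE 0.21, limma adjusted p = 3.0e-04), and the call was lost without whole marrow replicate 1 (0.82), without lineage-negative replicate 1 (0.93) and with TMM scaling (0.34). The 7 target genes had log2 differences of −1.15 (Socs3, limma adjusted p = 0.068) and −1.04 (Socs2, limma adjusted p = 0.061) up to −0.08 (Cish). With TMM scaling 4 of the 9 genes were called lower, Socs2, Socs3, Pim2 and Id1, as were 24.8% of all genes, and with Stat5a 5 of the 9 were called in either direction, against 35.7% of all genes. Socs2 and Socs3 were also called lower in a fit without AML and without AML replicates 5 and 6. Beside these values, 6 of 6 neutrophil markers and 6 of 6 B cell markers were called lower in lineage-negative marrow. Erythroid markers were lower in 4 of 6 and T cell markers in 3 of 4 (4 with TMM scaling). Of 5 progenitor markers 4 were higher and 1 lower, and 4 of 4 mast cell and basophil markers were higher (3 with TMM scaling). Of 4 megakaryocyte markers 1 was higher and 1 lower, and of 4 monocyte markers 0 were called (2 lower with TMM scaling).

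Per kilobase of exon, Pim1 was the most abundant of the 9 genes in AML, with a mean of 1270 ± 341 (SD, n = 7) normalized counts per kilobase. Stat5b followed with 672 ± 75.9 and Id1 with 362 ± 106. Id1, Socs3 (290 ± 201) and Stat5a (270 ± 43.0) did not differ beyond their spread, and of the lowest genes, Pim2 (86.6 ± 23.4), Socs2 (72.5 ± 40.0), Socs1 (52.0 ± 45.2) and Cish (30.2 ± 9.02), neighbours overlapped within 1 SD. In whole marrow Pim1 was again first, at 734 ± 242 (SD, n = 4), and Socs2 was last, at 6.21 ± 1.09, while neighbours overlapped within 1 SD from Id1 through Socs3 and Stat5a to Pim2. In lineage-negative marrow Stat5b and Pim1 were level, at 642 ± 112 and 640 ± 130 (SD, n = 4), neighbours overlapped from Id1 through Socs3 to Pim2, and Socs2 was last at 3.11 ± 1.31. Socs2 therefore stood last of 9 in both normal groups and seventh in AML.

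The leukaemias differed among themselves most in Socs1, Socs2 and Socs3. The SD of log2 values over the 7 AML libraries was 1.01 for Socs2 and 0.91 for Socs1, next to 1.08 for Socs3, and 0.81 for Flt3. It was 0.45 for Id1, 0.41 for both Cish and Pim2, 0.36 for Pim1 and 0.22 for Stat5a. Replicates 5 and 6 lay at opposite ends for these 3 genes. Replicate 6 had the highest Stat5a, Socs1, Socs3 and Pim1 of the 7 and the lowest Socs2, whereas replicate 5 had the lowest Socs1, Socs3, Cish and Pim2 and the highest Socs2. Replicate 6 also had the highest summed T cell markers in AML (2456 over 4 genes, against 436 to 1929 in the others). Of the 4 T cell markers, 3 were called higher in AML than in whole marrow (0 with TMM scaling) and 4 than in lineage-negative marrow (4 with TMM scaling), where the sums were 272 to 472 and 123 to 202. Their part in the SOCS values was not tested.

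Flt3, the mouse gene of the receptor named in the genotype, gave the scale for the comparison within AML. Its AML values were 870 normalized counts in replicate 6 and 1958 in replicate 1, and the remaining 5 libraries had 3076 to 4484, against 178, 330, 260 and 326 in whole marrow and 1863, 1985, 1747 and 1318 in lineage-negative marrow. Flt3 was called higher in AML than in whole marrow, by 3.33 (SE 0.33, limma adjusted p = 3.4e-07; 2.65 relative to all genes and 2.63 with TMM scaling), and not against lineage-negative marrow (0.65, SE 0.33, limma adjusted p = 0.12). Whether the duplicated allele lies in this mouse gene is not given in the sources used here. The gene's counts do not separate such an allele from the normal one. Of 18931 genes tested against Flt3 across the 7 AML libraries, 10.7% had an exact permutation p under 0.05 without adjustment, and 0 passed after adjustment (2025 unadjusted, smallest adjusted p 0.245). The 9 genes held 1 of the unadjusted ones, Pim1.

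Pim1 was higher where Flt3 was lower (Pearson r = −0.92, n = 7, exact two-sided permutation p = 0.00575, adjusted over all genes 0.319, Spearman rho = −0.79, exact permutation p = 0.048). Without the 2 libraries farthest from the Flt3 median, AML replicates 6 and 1, r was −0.42, so the relation rests on those libraries together. Without replicate 6 alone r was −0.78 (n = 6, exact permutation p = 0.0569), and without single libraries it ranged from −0.97 to −0.78. Id1 also ran against Flt3, with r = −0.64 (n = 7, exact permutation p = 0.0901, adjusted 0.513) and rho = −0.79 (exact permutation p = 0.048). For Id1 the value was similar without the 2 libraries, −0.78, and without replicate 6 alone, −0.79 (n = 6, exact permutation p = 0.0458). Neither gene passed the adjustment over all genes, which even a gene at the smallest p that 7 libraries allow did not pass.

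Socs2 was the 1 gene of the 9 with a positive r, 0.76 (n = 7, exact permutation p = 0.0573, adjusted 0.478, rho = 0.39). Its direction turned to −0.66 without replicates 6 and 1 and was 0.15 without replicate 6, whereas it was 0.96 without replicate 3. Socs1 had r = −0.73 (exact permutation p = 0.106) and turned to 0.28, and Stat5a had r = −0.58 (exact permutation p = 0.184) and turned to 0.66. Socs3 (−0.56, exact permutation p = 0.213) turned to 0.70, Cish (−0.35, exact permutation p = 0.464) to 0.50, and Pim2 (−0.11, exact permutation p = 0.828) to 0.00093. In all, 6 of the 9 genes changed sign without those 2 libraries. Stat5b had r = −0.21 with and without them (exact permutation p = 0.66 with all 7), but −0.67 without replicate 6 alone and −0.012 without replicate 3. No relation of Flt3 RNA with the STAT5 targets passed adjustment, but with 7 libraries this cannot decide whether a relation exists. The smallest p that the exact permutation test allows, 0.000198, was reached among all genes tested. Even that p came to 0.245 after adjustment.

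**Figure D4:**
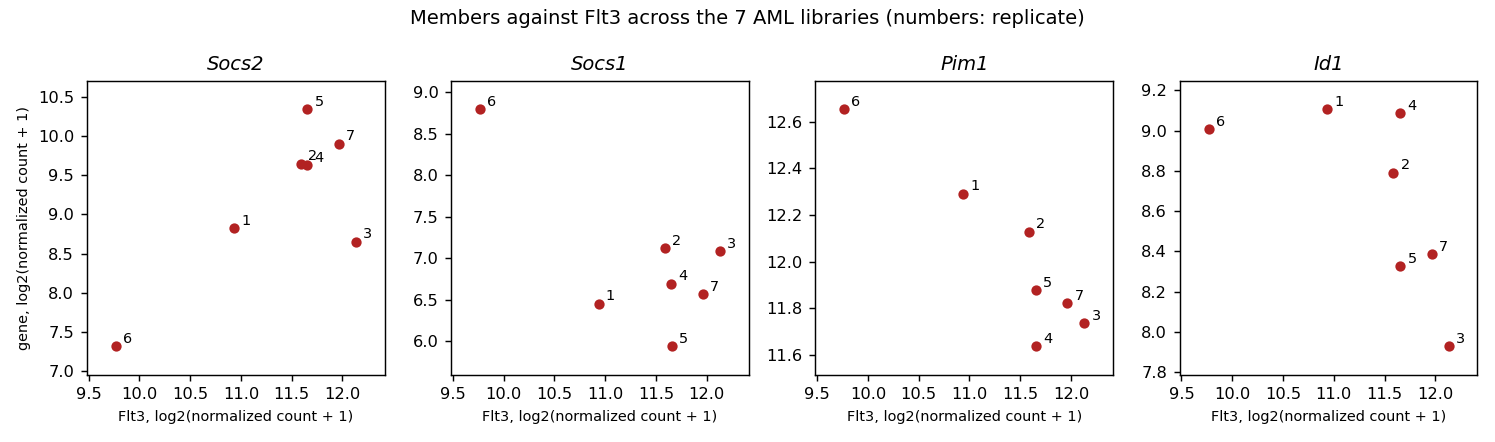
Socs2, Socs1, Pim1 and Id1 against Flt3 in the 7 AML libraries, both as log2(normalized count + 1), with the replicate number at each point. Replicate 6 lies alone at the low end of Flt3, and r over all 7 was 0.76, −0.73, −0.92 and −0.64.

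The genes around STAT5 in the pathway were followed in 6 lists, 37 genes in all, each of them tested. Against whole marrow 18 were higher in AML and 3 lower under the deposited scaling, but 4 and 4 with TMM scaling. Of all genes 27.3% were called higher and 11.3% lower there, and with TMM scaling 4.73% higher and 20.8% in either direction. Against lineage-negative marrow 14 were higher and 1 lower under either scaling. Of all genes 17.7% were called higher (17.6% with TMM scaling) and 12.5% lower there. The same shares stand beside the counts of the single lists below. The median log2 difference of the 37 genes was 0.97 and 0.54, beside 0.67 and 0.02 over all genes.

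Among the Janus kinases, which phosphorylate STATs at cytokine receptors, 3 of 4 were called higher in AML than in whole marrow. Jak3, the partner of the common gamma chain, differed by 1.97 (limma adjusted p = 2.9e-05), Tyk2 by 1.69 and Jak2 by 1.03, and Jak3 alone was called with TMM scaling. The Jak2 call was also lost with the replicate number as a block (0.95), without AML replicate 3 (0.96) or 6 (0.99), without AML replicates 5 and 6 (0.98) and without whole marrow replicate 1 (0.82). By limma 0 of the 4 were called against lineage-negative marrow (2 higher at an unadjusted p under 0.05). Jak3 had 574 to 1403 normalized counts in AML, within reach of lineage-negative marrow at 792 to 1286, and 106 to 434 in whole marrow.

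Of 4 other STAT genes, 2 were called higher than in whole marrow and 3 higher than in lineage-negative marrow. Stat2, a mediator of interferon signalling, had 1323 to 3505 normalized counts in AML, 315 to 594 in whole marrow and 418 to 572 in lineage-negative marrow, with no overlap of AML and either reference. It differed from lineage-negative marrow by 2.06 (limma adjusted p = 1.4e-06), Stat3, the gp130 signal transducer, by 1.38, and Stat6, which acts in interleukin-4 signalling, by 1.18. Against whole marrow Stat2 differed by 2.02 and Stat3 by 1.14, of which Stat2 alone was called with TMM scaling, and the Stat3 call was lost without whole marrow replicate 1 (0.87). Stat5a and Stat5b, in contrast to 3 of these 4 genes, had no call against lineage-negative marrow, a difference between genes that was not tested.

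Of the other 4 SOCS genes, Socs6 alone was called higher in AML than in whole marrow (1.23, limma adjusted p = 5.6e-05), without a call under TMM scaling, and 0 of 4 were called against lineage-negative marrow by limma (at an unadjusted p under 0.05, 1 higher and 1 lower). Socs5 and Socs7 were called higher in lineage-negative than in whole marrow, by 1.53 and 1.34, and neither with TMM scaling. The median of the 4 was −0.17 against lineage-negative marrow.

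Of 11 other genes listed as inhibitors of the pathway, 6 were called higher than in whole marrow and 5 higher than in lineage-negative marrow. With TMM scaling 0 were called higher than in whole marrow by limma, and 6 were higher at an unadjusted p under 0.05. Ptpn1, a tyrosine phosphatase of Janus kinases, was higher by 2.01 (limma adjusted p = 1.5e-06) than in lineage-negative marrow and by 1.59 than in whole marrow. Ptpn6, the haematopoietic phosphatase SHP-1, was higher by 1.60, and Sh2b3, the adaptor LNK that restrains JAK2, by 1.43 than in lineage-negative marrow. Cblb and Cbl, ubiquitin ligases that tag activated receptors for degradation, were higher by 1.56 and 1.48 than in whole marrow. Ptpn1 had 3565 to 7462 normalized counts in AML and 1036 to 2376 in whole marrow, with no overlap.

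The 11 other genes known as STAT5 targets went in both directions. Against whole marrow 5 were higher and 2 lower, and with TMM scaling 2 and 3. Bcl2l1, which encodes the survival protein BCL-XL and is abundant in erythroid cells, was lower by −2.41 (limma adjusted p = 1.2e-07). It had 408 to 627 normalized counts in AML, 1706 to 3142 in whole marrow and 244 to 562 in lineage-negative marrow. Beside it, AML had lower calls against whole marrow for 6 of 6 erythroid and 6 of 6 B cell markers. Lower too were 4 of 4 megakaryocyte, 4 of 4 mast cell and basophil and 1 of 5 progenitor markers. Higher there were 4 of 4 monocyte, 3 of 4 T cell and 2 of 5 progenitor markers, and 0 of 6 neutrophil markers were called. With TMM scaling the lower counts were the same and the higher ones were 2, 0 and 1. The part of these cell types was not tested. Ccnd1 and Cdkn1a, a cyclin and a cyclin-dependent kinase inhibitor, were higher by 1.89 and 1.70 than in whole marrow and were called with TMM scaling as well, at 1.19 and 1.01.

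Against lineage-negative marrow 4 of these 11 targets were higher and 1 lower. Bcl6, a transcriptional repressor that STAT5 is known to hold down, was higher by 3.59 (limma adjusted p = 1.0e-09), with 1277 to 2482 normalized counts in AML and 109, 114, 131 and 239 in lineage-negative marrow. Myc was lower by −2.40 (limma adjusted p = 1.9e-07), with 719 to 1688 in AML against 4421 to 9414. Il2ra was higher by 1.65 at low levels, 15.3 to 96.8 against 7.05 to 14.4. Against whole marrow both went the other way. There Myc was called higher by 1.11 (limma adjusted p = 8.3e-04), without a call under TMM scaling (0.42). Il2ra was called lower there by −1.13 (limma adjusted p = 0.022), also with TMM scaling (−1.81) but not without whole marrow replicate 2 or 4 or AML replicate 1. Between the normal groups Myc was higher by 3.52, Bcl2l1 lower by −2.87 and Il2ra lower by −2.78 in lineage-negative marrow.

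Of the 3 other ID genes, Id2 was, like Id1, higher in AML against both references. It was called higher in AML than in lineage-negative marrow by 3.77 (limma adjusted p = 4.0e-10) and than in whole marrow by 1.23, the latter without a call under TMM scaling or without whole marrow replicate 1 (0.998). Its values were 1476 to 3093 normalized counts in AML, 558 to 1176 in whole marrow and 98.0 to 182 in lineage-negative marrow. Id3 was higher than in lineage-negative marrow by 1.61, and Id4, low in every library (0 to 25.9), was lower than in whole marrow by −1.78. That Id4 call was lost without whole marrow replicate 1 (−1.76, limma adjusted p = 0.079), 2 (−1.83, 0.056) or 4 (−1.61, 0.088), with a pseudocount of 0.1 (−2.36, 0.12) and with quantile scaling (−1.42, 0.069). Id2, Id3 and Id4 were each lower in lineage-negative than in whole marrow, by −2.54, −2.03 and −3.10. Beside Id2, 4 of 4 monocyte markers were called higher in AML against either reference (2 of 4 against whole marrow with TMM scaling). Against lineage-negative marrow so were 6 of 6 neutrophil, 4 of 4 T cell, 4 of 6 B cell and 1 of 5 progenitor markers. Lower there were 4 of 5 progenitor, 3 of 6 erythroid, 3 of 4 megakaryocyte and 4 of 4 mast cell and basophil markers. The calls against whole marrow stand beside Bcl2l1 above, and the part of these cell types was not tested.

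**Figure D5:**
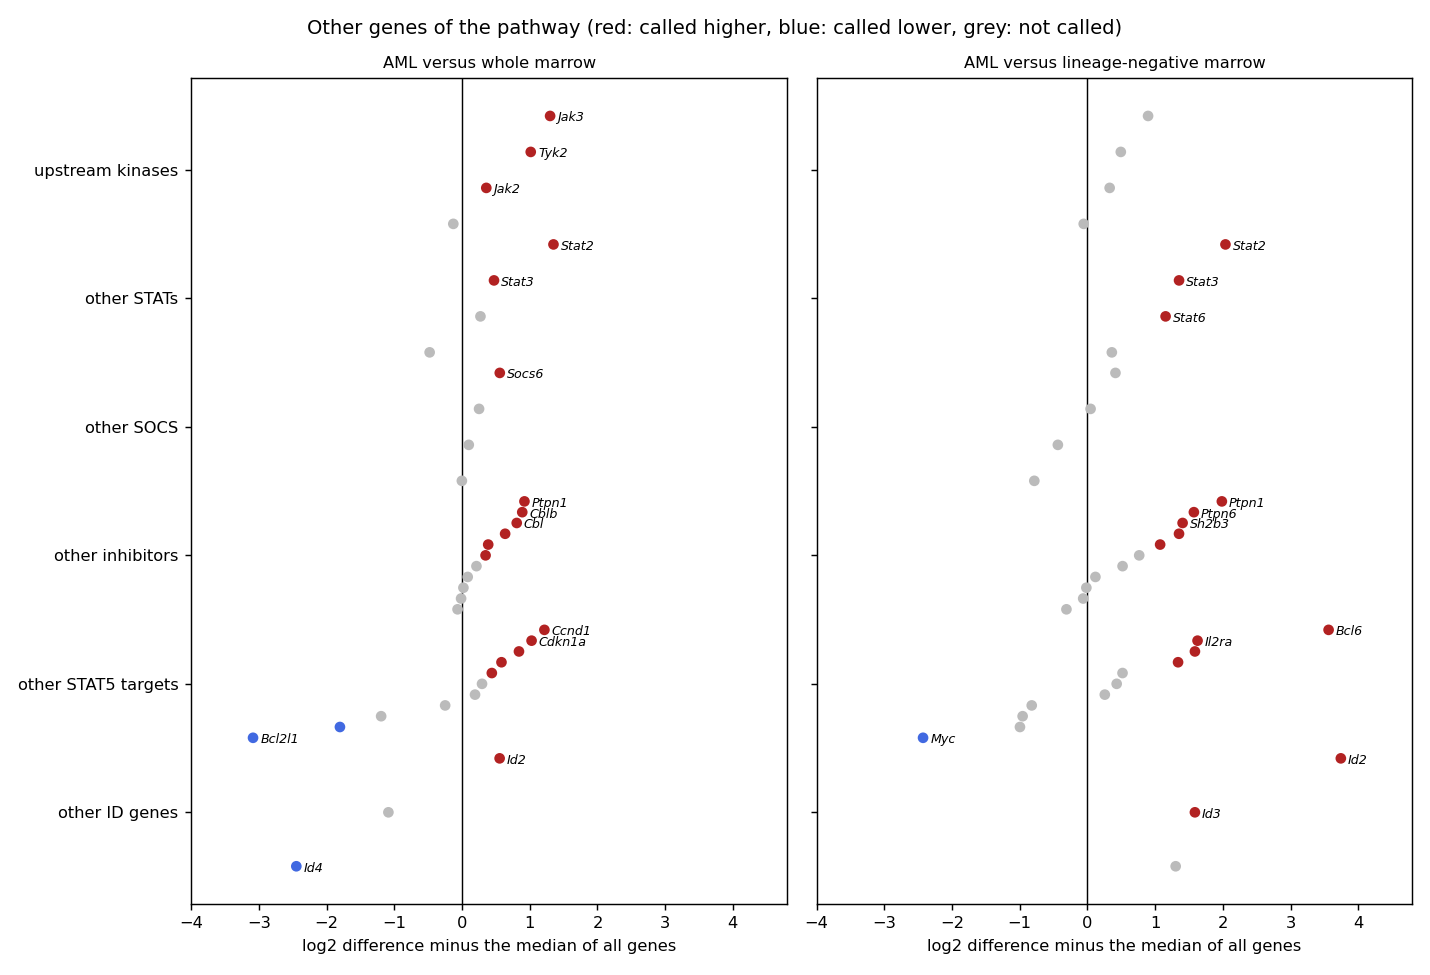
Log2 difference minus the median of all genes for the 37 other genes of the pathway, by list, in AML against whole marrow and against lineage-negative marrow. Red points were called higher, blue points lower and grey points not called, and up to 3 called genes of each list are named. Bcl2l1 is far to the left in the first panel, and Bcl6 and Id2 are far to the right in the second.

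The closest profiles over the 15 samples were found by the root mean square difference of centred log2 values, among 10427 or 10428 named genes with a mean of at least 100. Nearest to Stat5b were Coro1c (0.10) and Lman2 (0.10), and nearest to Stat5a were Snd1 (0.15) and Ccdc86 (0.19). Cish was nearest to Ptpn22 (0.24) and Parp3 (0.25), and Id1 to Borcs6 and Cebpd (0.26 each). Socs1 was nearest to Irf1 (0.37), an interferon-induced transcription factor, and Rnf19b (0.40). The SOCS genes with the widest spread had no gene as close: Socs3 was nearest to Bcl3 (0.56) and App (0.62), and Socs2 to Mx1 (0.58) and Rnd3 (0.64). None of the nearest genes was 1 of the 9.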

How the data were processed

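Values were analysed for 15 samples, 7 AML, 4 wild-type whole marrow and 4 wild-type lineage-negative marrow, grouped by sample titles. Per the labels' protocols, total RNA was extracted with TRIzol and libraries followed TruSeq Stranded Total RNA. The table holds a signal per gene and library, called normalized counts here: estimated read counts that the authors scaled by a DESeq2 size factor of the poscounts type, as the table's name says. STAR, Partek and DESeq2 and the build mm10 are listed as used by the authors, per the submitters' processing notes, without a role. The counter and the strand used are not given in the sources used here. Of the gene identifiers, 38066 occur in a GRCm38 annotation (GENCODE M21), 37557 with the same length but 861 with the same start, so gene positions are those of the table, with the end from start and length. That annotation gave exonic lengths and overlaps, and RefSeq GRCm38.p6 the promoter windows. The build of the gene positions is not settled, although mm10 is listed, so promoter positions cannot be set beside them.

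The 9 genes, the pathway and marker lists and the tests were chosen with earlier results of these data known. In each library 82.2% to 87.1% of low values were whole multiples of 1 step within a tolerance of 0.02 of a step, so whole reads were not recovered, no count test was run, and depth was estimated as the total divided by the step. Floors of 3 reads cover counting error only. Genes with at least 10 normalized counts in at least 4 samples were kept, 18941 of 38315. Values on the log2(value + 1) scale, which understates changes of low genes, entered 1 limma fit of 3 group means (limma 3.58.1, R 4.3.3, trend, two-sided), with Benjamini-Hochberg adjustment over the genes kept. It was tested on simulated data. Ratios and correlations used exact permutation tests (SciPy 1.17.1), for correlations over 5040 orders with a smallest p of 0.000198. The text names the 9 genes, Flt3, up to 3 called genes per pathway list and comparison by absolute log2 difference, and the 2 nearest profiles of each called gene. Some genes of the lists are not reported here. Alternatives were pseudocounts of 0.1 and 5, 2 filters, TMM and quantile scaling, 2-group fits, a robust variance model, the replicate block, linear values for the Flt3 relation, and leaving out libraries.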

Additional observations from a re-analysis of the deposited data

Results flagged for a closer look

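Socs1 in AML was the 1 of 36 sets of 4 or 7 samples in which a single sample stood far from the others. AML replicate 6 had 443 normalized counts and the next highest library 138, a gap of 0.796 of the whole range, above the critical value of Dixon's test at 95%. Chance flags about 1 in 20 groups. The same library had the highest Socs3, Pim1 and Stat5a and the lowest Flt3 and Socs2 of the 7, the highest summed T cell markers, and the smallest share of genes listed at 0 in AML, 23.6%. The part of these features in the Socs1 value was not tested.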

How the results depend on the processing

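Against lineage-negative marrow each of the 5 calls held in all 25 alternatives, and the count was 5 to 6. Against whole marrow the count of 6 higher fell to 1 under TMM and to 1 under quantile scaling, both of which reduce the shift between groups by construction (to medians of −0.01 and 0.12), and was 5 to 7 without single libraries. Pim2 there turned to −0.22 (TMM) and −0.29 (quantile). For Stat5b against lineage-negative marrow the difference was −0.0905 with quantile scaling and −0.00590 without lineage-negative replicate 4. Between the normal groups the count higher was 1 with TMM and 1 with quantile scaling and 1 to 2 without single libraries, and the count lower was 4 with TMM, 4 with quantile scaling, 2 with only the 2 groups compared, 2 without AML replicates 5 and 6 and 0 to 2 without single libraries. Cish there ranged from −0.31 to 0.014 without single libraries (0.00630 and 0.014 without whole marrow replicates 2 and 3) and Pim1 from −0.379 to 0.0230. With the replicate number as a block, 2 genes (Socs2 and Socs3) were called lower between the normal groups, and no other call of the 9 genes changed. Of the pathway genes in the AML comparisons, Jak2 lost its call under the block, and Bcl6 against whole marrow and Osm against lineage-negative marrow gained one. Deviations of same-numbered samples from their group means had weak correlations (−0.29 to 0.17). With 4 samples in each normal group this cannot tell whether the numbers pair the samples. The count of genes with an unadjusted p under 0.05 against Flt3 was 0 without AML replicates 5 and 6 and 0 without the 2 libraries farthest from the Flt3 median (5 libraries each), 2 on linear values and 1 to 3 without single libraries, 3 without replicate 3. Without AML replicates 5 and 6, r turned to 0.33 (Stat5a), 0.52 (Socs1), 0.025 (Socs3), 0.32 (Cish) and 0.48 (Pim2). Without the 2 farthest libraries it was 0.66 (Stat5a), 0.28 (Socs1), −0.66 (Socs2), 0.70 (Socs3), 0.50 (Cish) and 0.00093 (Pim2). Without single libraries r ranged from −0.71 to 0.30 (Stat5a), −0.84 to 0.32 (Socs1), −0.73 to 0.014 (Socs3), −0.86 to 0.28 (Cish) and −0.24 to 0.35 (Pim2), the upper end always without replicate 6, and from −0.97 to −0.78 (Pim1), 0.15 to 0.96 (Socs2), −0.67 to −0.012 (Stat5b) and −0.79 to −0.55 (Id1). The Stat5a to Stat5b difference between AML and whole marrow ranged from 0.35 to 0.48 without single libraries (0.40 and 0.37 without whole marrow replicates 1 and 2, past the threshold no longer), and the Pim1 to Pim2 difference between AML and lineage-negative marrow from −0.0226 to 0.18, and was −0.0863 without AML replicates 5 and 6. Except where fewer libraries or the scaling bring it about by construction, the cause was not tested.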
